A study of Mus musculus with 2 samples.

Results

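Granule-protease cells were defined in sorted myeloid cells of the mouse ankle synovium as cells with at least 20 unique molecular identifiers (UMIs, captured RNA molecules) of Elane, Mpo and Prtn3 together. They were thus chosen by measured RNA values, and what those values fix is given as a description. The rule found 85 such cells among 2847, of which 83 were among the 1210 cells of a library made 7 days after clodronate liposomes and 2 among the 1637 cells of an untreated (steady-state) library. The 83 day 7 cells are the members described here, and the other 1127 cells of the same library are their comparison.

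The study read RNA and 92 surface antibodies cell by cell (CITE-seq) in cells from the ankle joint synovium of chimeric mice. Both groups were CD45.2 B6 hosts that carried bone marrow of CD45.1 B6 donors, with the ankle protected during irradiation, so the joint could keep host cells. The day 7 group had received 200 µL of clodronate liposomes, which kill phagocytes that ingest them, into the retro-orbital sinus, and the steady-state group no treatment. In both groups live CD45+ CD11b+ cells were sorted after gating out Ly6C, Ly6G, CD177, CD64, SiglecF and class II MHC. The age, sex and number of animals behind each library are not given in the sources used here.

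Neutrophils and monocytes arise in bone marrow from shared progenitors. Cells of the promyelocyte stage fill their first, azurophil, granules with myeloperoxidase (Mpo) and the serine proteases neutrophil elastase (Elane), proteinase 3 (Prtn3) and cathepsin G (Ctsg), and they still divide. Myelocytes and later stages switch to the specific granule proteins lactoferrin (Ltf), cathelicidin (Camp) and lipocalin (Lcn2), and the last granules hold gelatinase (Mmp9), so granule transcripts order the stages of the lineage.

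The genes that chose the cells lie at 2 places in the genome. On mouse build GRCm38.p6 (RefSeq), Prtn3 lies at chr10:79879667-79883174 and Elane directly after it at chr10:79886312-79888216, followed by Cfd at chr10:79890853-79892655, while Mpo lies at chr11:87793784-87804412. Cfd, the complement factor D gene next to Elane, had 1 UMI in the members and 0 in the other day 7 cells. The promoters of the 3 rule genes are shown because their transcripts define the cells. Each runs from 250 bases before to 50 bases after the start of the gene and was searched on both strands for GAGGAAGT (a PU.1 core), GCAAT (a C/EBP core) and AACGG (a MYB core). Capitals mark matches, and the motifs were chosen for factors known to act in this lineage. The windows are chr10:79886062-79886361 for Elane, chr10:79879417-79879716 for Prtn3 and chr11:87793534-87793833 for Mpo, each on the plus strand, from the RefSeq promoter table.
Elane: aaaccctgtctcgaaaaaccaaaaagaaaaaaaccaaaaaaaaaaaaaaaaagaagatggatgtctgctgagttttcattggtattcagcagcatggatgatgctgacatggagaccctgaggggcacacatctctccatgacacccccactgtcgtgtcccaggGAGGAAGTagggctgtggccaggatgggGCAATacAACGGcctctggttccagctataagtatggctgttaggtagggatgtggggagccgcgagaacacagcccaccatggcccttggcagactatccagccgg
Prtn3: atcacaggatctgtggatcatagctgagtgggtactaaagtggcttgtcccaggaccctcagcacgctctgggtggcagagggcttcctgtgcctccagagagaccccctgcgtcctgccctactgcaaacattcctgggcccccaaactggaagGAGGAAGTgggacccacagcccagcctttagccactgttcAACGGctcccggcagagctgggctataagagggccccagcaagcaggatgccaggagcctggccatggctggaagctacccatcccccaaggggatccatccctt
Mpo: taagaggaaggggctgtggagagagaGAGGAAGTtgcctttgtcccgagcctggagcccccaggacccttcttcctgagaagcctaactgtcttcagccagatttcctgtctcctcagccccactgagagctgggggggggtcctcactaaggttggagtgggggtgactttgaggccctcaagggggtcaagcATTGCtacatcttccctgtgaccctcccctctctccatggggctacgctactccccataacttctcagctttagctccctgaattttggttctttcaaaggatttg

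In the Elane window GAGGAAGT began 85 bases before the gene start, GCAAT 57 bases and AACGG 50 bases before it. In the Prtn3 window GAGGAAGT began 95 and AACGG 55 bases before the start, and in the Mpo window GAGGAAGT began 224 bases and the minus-strand match of GCAAT 56 bases before it. Of 32851 RefSeq promoter windows of 300 bases, 3.2% held GAGGAAGT, 26.4% GCAAT and 17.4% AACGG on either strand. The window of Ctsg held none of these letters, which says nothing of the factors themselves.

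The day 7 library held 1277 barcodes, of which 1210 passed the limits (500 RNA UMIs and 200 genes or more, and no more than 10% of UMIs from mitochondrial genes), with 10983657 UMIs and a median of 8309 UMIs per cell. The steady-state library held 1912 barcodes, of which 1637 passed, with 17169755 UMIs and a median of 9569. The libraries shared 0 cell barcodes. Scrublet called 10 day 7 cells doublets, 2 of them members, and 7 steady-state cells, none a member, and no cell was removed. With 1 library per group there is no test between groups, and cells are not replicates. Ranges in parentheses are 95% intervals (Clopper-Pearson, exact, for shares and conditional exact Poisson for ratios). They cover counting error only and leave out differences between animals and sorts and, for ratios, between cells.

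Granule-protease cells made up 6.86% of day 7 cells (5.50 to 8.43%) and 0.122% of steady-state cells (0.0148 to 0.441%). The members held 21 to 1543 UMIs of the 3 rule genes (median 76), while 856 of the 1210 day 7 cells (70.7%) held 0. The members nearest the threshold had 21, 21, 22, 23 and 23 such UMIs, and the day 7 cells just outside had 19, 18, 18, 17 and 16. Of the 20 day 7 cells with 10 to 19 UMIs, 14 belonged to the Ly6c2 monocytes and 6 to the late granulocytes defined below. The rule counts raw UMIs and so also selects deep cells: members had a median of 21426 UMIs and 3845 genes, against 7981 UMIs and 2552 genes in the other day 7 cells, and they held 15.9% of the library's UMIs. Mitochondrial UMIs had medians of 1.77% in members and 2.08% in the other cells.

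**Figure D1:**
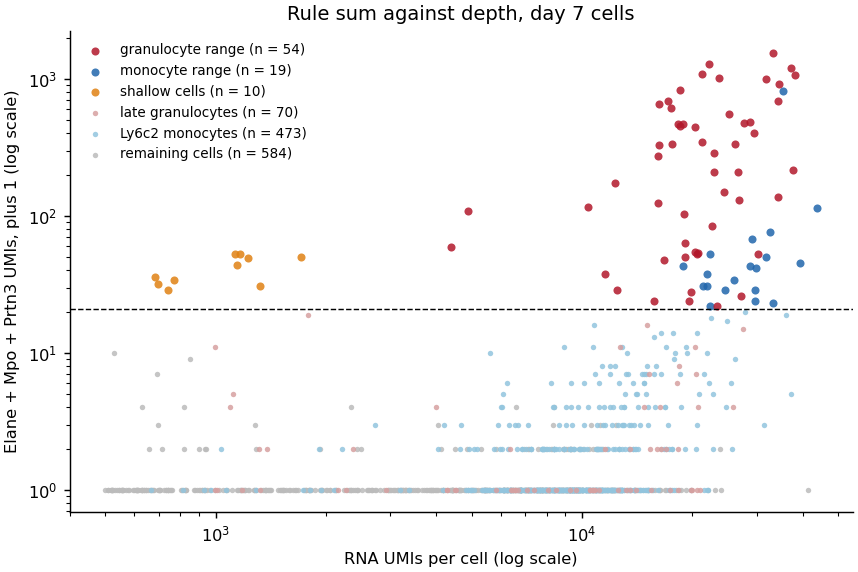
UMIs of Elane, Mpo and Prtn3 together, plus 1, against RNA UMIs per cell, for 1210 day 7 cells on log axes, 1 point per cell. The dashed line is the rule (20 UMIs, drawn plus 1): members lie on or above it in 3 coloured ranges described in the text, from 21 to 1543 UMIs, and most other cells lie at 0.

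The other day 7 cells were divided by simple limits into 70 late granulocytes (at least 200 UMIs of S100a8 and S100a9 together), 473 Ly6c2 monocytes (at least 5 UMIs of Ly6c2, a gene of classical monocytes, among the remaining cells) and 584 remaining cells. S100a8 and S100a9 encode the calprotectin subunits, which accumulate as granulocytes mature. These are ranges of gene counts, not annotated cell types, and each gene that sets a limit is no result between the sets.

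The markers of the proposed cell type were present, but so were those of later stages. Of the 83 members, 82 had a UMI of Elane, 83 of Prtn3, 69 of Mpo, 63 of Ctsg, 61 of Ms4a3, a membrane protein gene of committed granulocyte and monocyte progenitors, and 71 of Fcnb, which encodes ficolin B. Yet Camp had 0 to 3360 UMIs (median 424), Ngp (neutrophilic granule protein) 0 to 946 UMIs (median 125) and S100a8 0 to 4894 UMIs (median 929) per member. Kit, the stem cell factor receptor of early progenitors, had a UMI in 34 members and never more than 5, Cd34 had one in 1, and Flt3, Mecom and Gata2 stood at 0 UMIs. Of 14 genes of stem and multipotent cells, 3 reached 20 CPM (UMIs per 1000000) in members or other cells, Cdk6, Myb and Kit. The label of early progenitors thus covers a share of the cells, and they are called granule-protease cells here.

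Depth alone could place a UMI in any cell, so detection was also read with every cell thinned to 2000 UMIs, which left out 10 shallow members. At that depth Elane was seen in 63 of 73 members (86.3%), 6 of 60 late granulocytes (10%), 15 of 462 Ly6c2 monocytes (3.25%) and 3 of 433 remaining cells (0.693%). The remaining cells, with little S100a8, S100a9 or Ly6c2, gave the level to set these shares against. Before thinning, their median depth was 5954 UMIs and 3.94% held a UMI of Elane, against 21426 UMIs and 98.8% of members. Prtn3 was seen in 91.8% of members, 6.67% of late granulocytes, 13.2% of Ly6c2 monocytes and 2.54% of remaining cells, so the Ly6c2 monocytes stood above that level. The rule read Elane and Prtn3, so the gap between members and the other sets was set in advance for both genes and is a description. Camp and Ltf were not read by the rule, but late granulocytes carried both genes too, as given below. Camp was seen in 72.6% of members and 7.62% of remaining cells, and Ltf in 26.0% and 0.462%, but in the monocyte range Camp was seen in 2 of 19 cells (10.5%), close to the share in the remaining cells. Marker lists of other lineages summed to few of the 1742678 UMIs of the members: 10 UMIs in all for basophil and mast cell genes, 55 for eosinophil genes, 11 for erythroid, 7 for megakaryocyte, 4 for T and NK cell and 1 for fibroblast genes, 9 for osteoclast genes, 104 for dendritic cell genes and 163 for B cell genes (in 58 members, with 5 of the 7 B cell genes at 0). Of the dendritic UMIs 59 were of Mgl2, in 32 members. Its summed level was 33.9 CPM in members and 30.5 CPM in the remaining cells, where 27 of 584 cells held it. The 14 macrophage genes summed to 185 UMIs in 35 members, with 4 genes, C1qc among them, at 0.

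As a group the members carried higher levels of azurophil granule and cell division genes, and lower levels of monocyte, macrophage, interferon response and antigen presentation genes than the other day 7 cells. Summed UMIs as CPM were set against those of the other day 7 cells. Of 6294 genes that reached 20 CPM in one of these sets, 631 were at least 2-fold higher in members (10.0%) and 1401 at least 2-fold lower (22.3%), counted by the ratio alone, with a median log2 ratio of -0.28. The rule chose on this contrast, so what follows describes the cells and tests nothing.

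Elane had 0 to 745 UMIs (median 36) per member and at most 8 in any other day 7 cell, or 6594 against 18.1 CPM. Mpo had 0 to 389 UMIs (median 10) per member and at most 4 elsewhere (2163 against 3.68 CPM; log2 ratio 9.20, 8.71 to 9.73), which placed it first when genes were ranked by the end of the interval closer to a ratio of 1. Prtn3 had 7 to 441 UMIs (median 37) per member and at most 18 elsewhere. By the rule these 3 genes had to separate the sets, and the per-cell ranges of each still overlap because the rule reads their sum. Ctsg, which the rule did not read, had 0 to 89 UMIs (median 3) per member and at most 6 in another cell (592 against 2.71 CPM; log2 ratio 7.77, 7.20 to 8.41).

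Of the other 10 azurophil granule genes, 6 were at least 2-fold higher and 1 lower (median log2 ratio 2.81, against -0.28 over all genes compared). Besides Ctsg, the higher ones were Prss57, a further neutrophil serine protease (131 against 2.27 CPM), the granule membrane protein gene Nkg7 (288 against 10.5 CPM), Cst7, which encodes an inhibitor of cysteine proteases (112 against 2.92 CPM), the protease inhibitor gene Serpinb1a (735 against 77.5 CPM) and the tetraspanin gene Cd63 (734 against 142 CPM). Srgn, the proteoglycan core that packs granule proteases, had 1563 against 1408 CPM, less than a 2-fold difference, and Lyz2 (lysozyme) was lower at 3566 against 10843 CPM. Ctsc encodes cathepsin C, the enzyme that activates the granule serine proteases, and stood at 212 CPM in members and 412 CPM in the other cells.

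Of 10 genes typical of early granulocyte progenitors 8 were higher and 0 lower (median 2.36), led by Ms4a3 (598 against 11.1 CPM; log2 ratio 5.75, 5.45 to 6.05) and Fcnb (1233 against 59.8 CPM; 4.37, 4.23 to 4.50). Granulocyte transcription factors were higher in 7 and lower in 2 of 12 cases (median 1.59), but over the factors that reached 100 CPM the median was -0.37. Gfi1, the repressor needed for neutrophil formation, had 39 against 1.19 CPM, Cebpe, which drives specific granule genes, 269 against 29.4 CPM, and Myb, a factor of dividing progenitors, 88.9 against 4.11 CPM. Cebpa and Cebpb were lower, with log2 ratios of -1.24 and -1.64, while Spi1, which encodes PU.1, and Runx1 were within 2-fold (-0.67 and -0.86). Genes outside these lists that led the members were the adhesion molecule gene Vcam1 (158 against 4.22 CPM), the deiodinase gene Dio2 (27.0 against 0.325 CPM), Fbp1, a gluconeogenic phosphatase (32.7 against 0.866 CPM), and Prom1, which encodes the membrane protein CD133 (60.8 against 2.92 CPM).

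Later granule classes were mixed. Of 14 specific granule genes compared, 7 were higher and 1 lower (median 1.0): Camp had 0 to 3360 UMIs (median 424) per member, against up to 1938 in other cells with a median of 0. Ltf, a marker of the myelocyte stage, had a median of 0 and a highest value of 114 UMIs per member, and its summed level was 388 against 579 CPM. Of 13 genes of late granulocytes 4 were higher, among them S100a8 and S100a9, and 6 lower (median -0.83). Mmp9, the gelatinase gene, had 0 UMIs in the members and 47.7 CPM in the other cells, and Retnlg 33.9 against 357 CPM (19.2 CPM in members without the cell highest in it).

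Of 15 monocyte markers 14 were at least 2-fold lower in members (median -1.93) and of 12 monocyte transcription factors 11 (median -2.13). Csf1r, the receptor for macrophage colony-stimulating factor, had 52.2 against 504 CPM. Ly6c2 was the marker that was not lower (1854 against 1043 CPM; log2 ratio 0.83, 0.77 to 0.89). Lower too were 6 of 6 class II genes (median -4.45), 9 of 10 interferon-stimulated genes (-2.40; Cxcl10 was higher by 1 cell, which held 86 of its 92 UMIs, and stood at 3.52 CPM without it, against 21.6 CPM in the other cells), 13 of 14 immediate early genes (-2.24) and 6 of 11 adhesion and homing genes (-1.17; Vcam1 was higher). Of 11 growth factor receptor genes, Kit was higher (37.9 against 4.54 CPM) and 4 were lower, while Csf3r, the receptor for granulocyte colony-stimulating factor, was within 2-fold (-0.32). Of 9 cell cycle inhibitor genes 1 was higher and 3 lower (median -0.37), and of 6 genes of the sort antigens 0 were higher and 3 lower (median -1.35).

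The genes lowest by the naming rule were those of macrophages and stromal cells. C1qc, a chain of complement C1q, had 0 UMIs in members and 328 CPM elsewhere, at least 191-fold lower against a floor of 3 counts in all members, and C1qa, C1qb and the hyaluronan receptor gene Lyve1 had 1 UMI each in members, against 376, 359 and 361 CPM. Aqp1 (aquaporin), the matrix gene Dcn, Pmepa1, Dab2, Tns1 and Id3 also had 0 UMIs in members and 232, 136, 135, 113, 94.1 and 78.2 CPM elsewhere. The chemokine genes Pf4 and Cxcl2 had 2.30 against 544 and 4.02 against 520.1 CPM, and Fxyd2, Ecm1 and Retnla log2 ratios of -7.54, -7.25 and -7.76. Housekeeping classes differed little: 1 of 15 ribosome biogenesis genes and 0 of 18 endoplasmic reticulum (ER) folding and export genes were 2-fold higher and none of either lower (medians 0.17 and 0.02), nor was any of 6 oxidative burst genes (median 0.16).

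The group was not uniform. Members with at least 2000 UMIs separated by 5 genes of monocyte progenitors, Irf8, Csf1r, Ly86, F13a1 and Klf4. Of the 83 members, 54 (65.1%, 53.8 to 75.2%) had 0 to 6 UMIs of these genes and are called the granulocyte range, and 19 (22.9%, 14.4 to 33.4%) had 15 to 92 (median 50) and are called the monocyte range; none lay between. The other 10 (12%, 5.93 to 21%) had under 2000 UMIs (685 to 1714) and are called shallow, because a 0 in them says little. The split was made after the values were seen, and these are ranges of gene counts. Medians of RNA UMIs were 20612 in the granulocyte range and 28977 in the monocyte range. The shallow members carried Elane at 16322, Mpo at 10944 and Prtn3 at 10567 CPM, above the 8932, 2919.5 and 5434 CPM of the granulocyte range. The rule sets a minimum of raw UMIs for these genes together, which is a larger share of a cell with few UMIs. It fixes no level for any single gene, and how much of the gap goes with the rule was not tested.

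**Figure D2:**
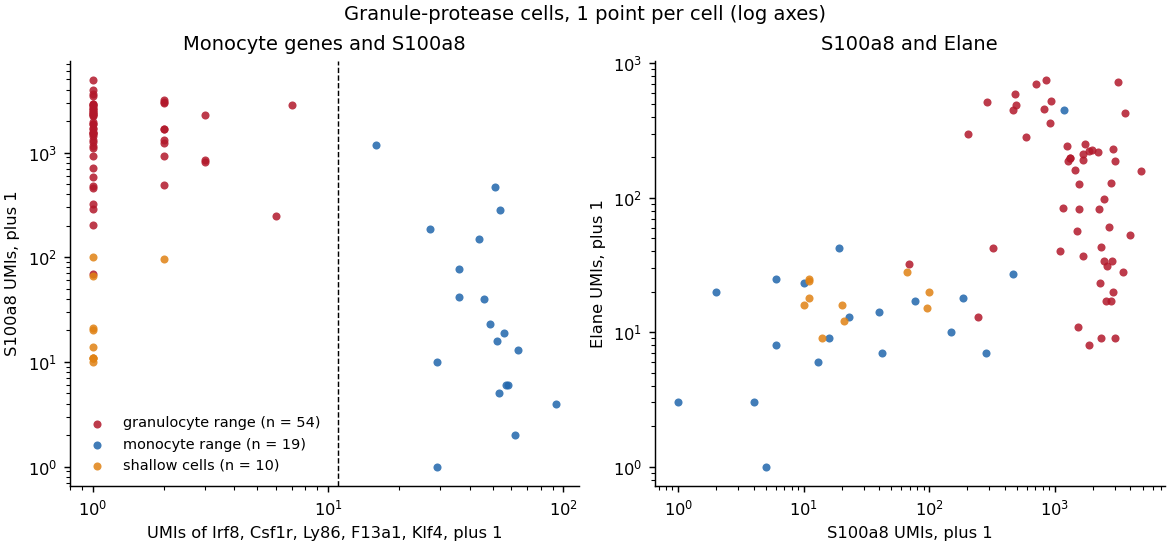
Left, UMIs of Irf8, Csf1r, Ly86, F13a1 and Klf4 together against S100a8 UMIs, and right, S100a8 against Elane UMIs, for the 83 members, 1 point per cell, all plus 1 on log axes. The dashed line marks 10 UMIs (drawn plus 1): the 54 cells of the granulocyte range lie at 0 to 6 and the 19 of the monocyte range at 15 to 92, and in the granulocyte range the cells with most S100a8 tend to have less Elane.

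Between the ranges, 6103 genes were compared, of which 408 were at least 2-fold higher in the granulocyte range (6.69%) and 1635 lower (26.8%; median log2 ratio -0.51). Of 14 specific granule genes 10 were higher (median 3.43): Camp had 0 to 3360 UMIs (median 1252) per cell in the granulocyte range and 0 to 654 UMIs (median 0) in the monocyte range, and Ngp, Lcn2 and Pglyrp1, which encodes a peptidoglycan binding protein, had log2 ratios of 5.43, 3.53 and 3.77. Without 1 cell of the monocyte range, described later, the ratio was 11.24 (10.44 to 12.20) for Camp and 9.95 (9.02 to 11.08) for Ngp. Vcam1 stood at 227 against 3.69 CPM, so its lead among all members came from the granulocyte range and the shallow cells (377 CPM). Of 15 monocyte markers 14 were lower (median -5.18; the split itself reads Csf1r, Ly86 and F13a1), with fibronectin (Fn1) at 6.72 against 1528 CPM, the proteoglycan Vcan at 0.840 against 236 CPM and the calcium-binding S100a4 at 21.8 against 1346 CPM (11 CPM in the granulocyte range without its highest cell). Ctsc was among the 12 lowest genes: it had 7 UMIs in 6 of 54 cells of the granulocyte range (5.88 CPM) and 363 UMIs in 19 of 19 of the monocyte range (670 CPM), a log2 ratio of -6.83 (-8.16 to -5.77). Late granulocytes had 55.9 and Ly6c2 monocytes 518 CPM of Ctsc, so the granulocyte range, with higher CPM of Elane, Mpo and Prtn3 than each of these sets, had the fewest transcripts of the gene for the activating enzyme.

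**Figure D3:**
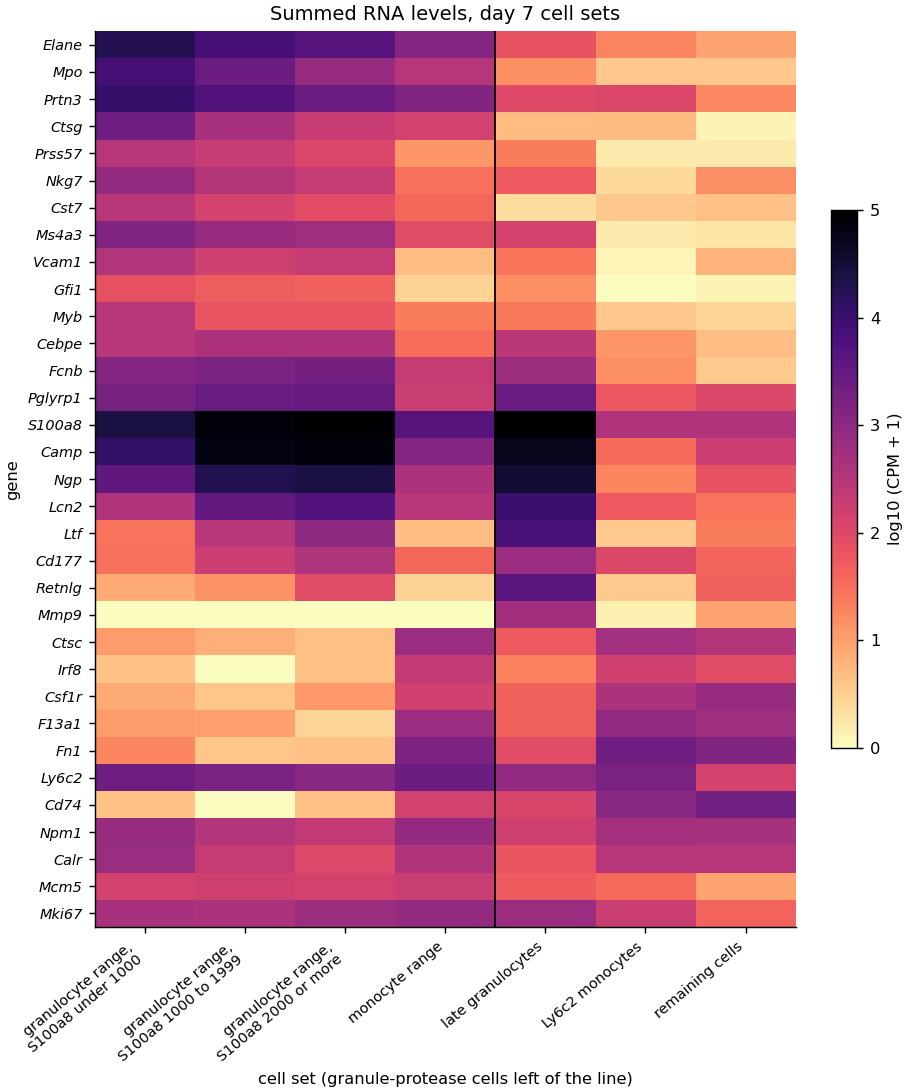
Summed level of 33 genes as log10 of CPM plus 1 (colour) in 7 sets of day 7 cells, with the members left of the vertical line and the other cells right of it. From the first to the third column, in rising S100a8, the proteases fade while Camp, Ngp, Lcn2 and Ltf darken; Ctsc, Irf8, Csf1r and Fn1 are dark in the monocyte range and Ly6c2 monocytes, and Mmp9 and Retnlg are darkest in late granulocytes.

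Within the granulocyte range, cells with more S100a8 had lower levels of the protease genes and higher levels of the specific granule genes. The 54 cells were divided at 1000 and 2000 S100a8 UMIs into 14, 18 and 22 cells, limits set after the values were seen; 6 cells lay within 20% of the first limit and 12 within 20% of the second. From low to high S100a8 the summed level of Elane was 18729, 7597 and 4625 CPM, that of Mpo 7547, 2578 and 715 CPM, and that of Ctsg 2296, 455 and 200.0 CPM. In the same order Camp had 12309, 65168 and 76294 CPM, Lcn2 368, 3368 and 5078 CPM, and Ltf 27.2, 295 and 1007 CPM. Fcnb kept to a narrower band at 1270.4, 1637 and 1968 CPM, as did Cebpe at 296, 401 and 400.0 CPM.

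Per cell the ranges overlapped. Mpo had 0 to 132 UMIs (median 4) in the 22 cells with most S100a8 and 0 to 389 UMIs (median 168) in the 14 with least, and Elane 8 to 724 UMIs (median 47) against 12 to 745 UMIs (median 455). Camp had 847 to 3360 UMIs (median 1844) against 0 to 1235 UMIs (median 81), and Ltf had a UMI in 20 of 22 cells against 1 of 14. These are raw counts, and the cut on raw S100a8 UMIs also sorts by depth. The 22 cells had a median of 23919 RNA UMIs (lowest 16711) and the 14 cells 19861.5 (lowest 4378). Across the 54 cells, with both genes per 10000 UMIs, Spearman's rho with S100a8 was -0.76 for Elane, -0.75 for Mpo, -0.73 for Prtn3, -0.70 for Ctsg and -0.60 for Ms4a3, and 0.43 for Fcnb, 0.54 for Camp, 0.67 for Ngp and 0.70 for Ltf. Pearson's r on the log2 scale lay between -0.73 for Ctsg and 0.73 for Camp. These describe 54 cells of 1 library in which both values of a pair share one denominator, the cell's total.

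In the 22 cells with most S100a8 against the 14 with least, 327 of 5615 genes were at least 2-fold higher (5.82%) and 1263 lower (22.5%; median -0.41). Higher were 9 of 13 specific granule genes (median 2.63), led by Ltf (5.21, 4.22 to 6.43), Lcn2 (3.79), the neutrophil surface protein gene Cd177 (381 against 30.7 CPM) and Chil3 (2.95), and outside that list the stefin gene Stfa1 (258 CPM, or 98.6 CPM without the cell that held 94 of its 146 UMIs, against 0 UMIs) and Ifitm6 (4.94). Of 12 azurophil genes 8 were lower and 1 higher (median -1.92): Mpo had a log2 ratio of -3.40 (-3.56 to -3.25), Ctsg -3.52 and Srgn 648 against 5316 CPM, while Lyz2 was higher (2618 against 504 CPM, or against 262 CPM without 1 cell). Genes of cell growth were lower as well, with 15 of 17 ribosome biogenesis genes (median -1.87) and 13 of 18 ER folding and export genes (median -1.28) below by 2-fold. Among them were Nop16, a nucleolar protein gene (0 UMIs against 51.1 CPM), and the ER chaperone gene Calr (97.3 against 698 CPM). The cyclin gene Ccnd2, the spermidine synthase gene Srm, the serine synthesis gene Phgdh and Eef1e1 had log2 ratios of -5.03, -3.70, -3.80 and -4.06.

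Against the 70 late granulocytes, 692 of 5206 genes were at least 2-fold higher in the granulocyte range (13.3%) and 496 lower (9.53%; median 0.14). The 83 members had 1032 of 5474 genes higher (18.9%) and 299 lower (5.46%) than late granulocytes. In the granulocyte range, azurophil genes were higher in 10 of 13 cases (Ctsg 7.63, Cst7 6.78, and Mpo 7.78), ribosome biogenesis genes in 12 of 14 and ER folding genes in 9 of 18. The 13 include Elane, Mpo and Prtn3. The rule fixes their direction, because late granulocytes hold under 20 UMIs of these genes together, so their ratios are a description. Genes of late granulocytes were lower in 12 of 18 cases (median -3.39). Mmp9 and the collagenase gene Mmp8 had 0 UMIs in the granulocyte range, against 547 and 379 CPM in late granulocytes, Retnlg 48.7 against 4158 CPM, and Ly6g, the gene of a sort antigen, 1.68 against 157 CPM. Camp was close, at 57410 against 57782 CPM, while Ltf was lower at 567 against 6998 CPM.

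By cuts on S100a8 over all 83 members, 8 had under 10 UMIs, 17 had 10 to 99 and 58 (69.9%) had 100 or more, with 12 cells at 5 or more but under 20 and 7 at 50 or more but under 200. In the 58 against the 8, 564 of 6044 genes were at least 2-fold higher (9.33%) and 1714 lower (28.4%). The cut largely repeats the ranges: 7 of the 8 cells lay in the monocyte range and 53 of the 58 in the granulocyte range. Of the 17 cells between, 9 were shallow, 7 lay in the monocyte range and 1 in the granulocyte range. The shallow members held S100a8 at 33022 CPM, so a cut on raw UMIs places them by depth, and the 17 are not read as a stage. Ngp and Camp led the higher genes (11.73 and 10.12) and Vcan was among the lower ones (4.53 against 442 CPM). The chemokine genes Ccl4 (6.04 against 591 CPM) and Cxcl10 also led the lower genes, but 125 of 127 and 86 of 86 of their UMIs in the 8 cells came from 1 cell each.

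The 19 cells of the monocyte range carried more cell division transcripts than the Ly6c2 monocytes and fewer of class II genes, and 4 of 15 monocyte markers were 2-fold lower. They were also far deeper, with a median of 28977 RNA UMIs (lowest 18847) against 9730 in the Ly6c2 monocytes. The rule on raw UMIs favours deep cells, and whether these differences go with depth was not tested. Against the 473 Ly6c2 monocytes, 646 of 6250 genes were at least 2-fold higher (10.3%) and 540 lower (8.64%; median 0.01). S-phase genes were higher in 21 of 21 cases (median 2.43) and G2/M genes in 21 of 22 (1.88), with the cyclin gene Ccne2 at 79.4 against 6.23 CPM. Lower were 5 of 6 class II genes (median -2.89; Cd74, the invariant chain, 146 against 1077 CPM, or 27.3 CPM without the cell with 65 of its 79 UMIs) and, among the monocyte markers, the fractalkine receptor gene Cx3cr1 (31.4 against 200.0 CPM). Irf8, the factor that directs progenitors to the monocyte lineage and a gene of the split, stood at 216 against 152 CPM.

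Several values of the monocyte range came largely from 1 cell. It had 817 UMIs of the rule genes, where the next had 114, and 15 UMIs of the monocyte genes (0 of Irf8 and 1 of Csf1r), where the next lowest had 26. It held 65.7% of the range's Elane UMIs (451 of 686), 81.5% of Mpo, 94% of Ms4a3, 98.2% of Camp and 95.9% of Ngp. Scrublet called another cell of the range a doublet (22 rule UMIs among 33195), but not this cell. With it, the log2 ratios over Ly6c2 monocytes were 6.16 for Elane, 6.87 for Mpo, 7.26 for Ms4a3, 5.14 for Camp and 4.54 for Ngp. Without it they were 4.71 (4.35 to 5.08) for Elane, 4.53 (3.59 to 5.55) for Mpo, 3.23 (3.06 to 3.41) for Prtn3 and 4.33 (3.55 to 5.16) for Ctsg, but -0.55 (-1.53 to 0.29) for Camp and 0.02 (-1.15 to 1.01) for Ngp. Camp then stood at 23.7 CPM in the other 18 cells and Ms4a3 at 3 UMIs, and Elane at 464, Prtn3 at 1009 and S100a8 at 2634 CPM. The rule and the limits of the Ly6c2 monocytes (under 20 rule UMIs, and under 200 UMIs of S100a8 and S100a9) fix the direction for the rule genes and S100a8, so these ratios are a description. S-phase genes were still higher in 21 of 21 cases without it (median 2.41), and Ctsc in the granulocyte range was still lower, with a log2 ratio of -6.92 (-8.24 to -5.86).

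Most granule-protease cells carried transcripts of dividing cells, in both ranges and at each level of S100a8. Of S-phase genes, which act in DNA replication, 21 of 21 compared were at least 2-fold higher in members than in the other day 7 cells (median log2 ratio 2.58), and of genes of G2 and mitosis 22 of 22 (median 1.76). Mki67, the proliferation marker, had 0 to 47 UMIs (median 10) per member and a median of 0 in the other cells (629 against 169 CPM), the replication helicase gene Mcm5 156 against 26.1 CPM, and Rrm2, a subunit of ribonucleotide reductase, 263 against 43.8 CPM. The rule chose deep cells, so shares were read after thinning each cell to 2000 UMIs, which left out 10 members and 172 other cells. Thinning makes the depth equal but does not undo the choice of deep cells by the rule.

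At least 2 UMIs of the S-phase list were present in 90.4% (81.2 to 96.1%, 66 of 73) of members and 16.3% (14.0 to 18.8%, 156 of 955) of the other cells, and of the G2/M list in 83.6% (73.0 to 91.2%, 61 of 73) of members and 15.9% (13.7 to 18.4%, 152 of 955) of the others. Unthinned, the S-phase shares were 96.4% and 54.6%, and the G2/M shares 96.4% in members and 38.0% in the others. Both lists were met by 55 of 73 members and neither by 1, while 77 of 955 other cells met both and 724 neither. The S-phase share was 90.7% in the granulocyte range and 89.5% in the monocyte range, against 43.3% of late granulocytes, 18.4% of Ly6c2 monocytes and 10.4% of the remaining cells. The G2/M share was 79.6% and 94.7% in the granulocyte and monocyte ranges, against 51.7% of late granulocytes, 19% of Ly6c2 monocytes and 7.62% of remaining cells.

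Within the granulocyte range the S-phase share was 12 of 14, 17 of 18 and 20 of 22 cells from low to high S100a8, and the G2/M share 10 of 14, 14 of 18 and 19 of 22. Of the S-phase genes 1 of 21 was 2-fold higher at high S100a8 and none lower, and of the G2/M genes 1 of 22 was lower (medians 0.12 and -0.28), while most protease and ribosome biogenesis genes were lower. Against late granulocytes, 7 of 21 S-phase genes were 2-fold higher in the granulocyte range (median 0.78) and 0 of 22 G2/M genes (median -0.02).

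**Figure D4:**
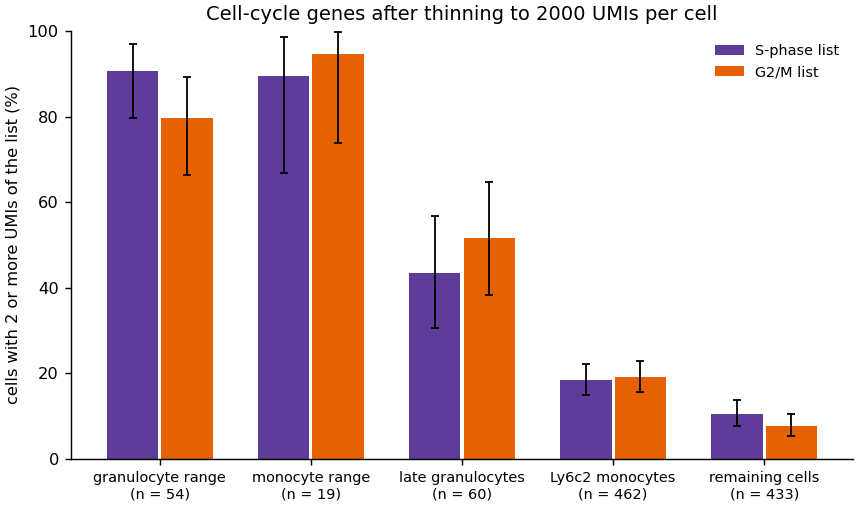
Share of cells (%) with at least 2 UMIs of the S-phase or the G2/M gene list after thinning each cell to 2000 UMIs, with exact 95% binomial intervals as error bars, in the 2 ranges of members and then 3 sets of other day 7 cells. Each list taken singly is met by 79.6 to 94.7% of either range of members, by 43.3 and 51.7% of late granulocytes, and by under 20% of the other 2 sets.

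Surface antibodies were not used to choose the cells. Over all members CD71, CD106 and CD43 had the highest ratios per cell to the other day 7 cells. In the monocyte range, however, the medians of CD71 and CD106 were 3 and 2, and late granulocytes shared the high CD43 (median 345). CD71 is the transferrin receptor, which brings iron into dividing cells: members had 0 to 504 counts (median 11) and the other day 7 cells 0 to 107 (median 1), or 41.3 against 2.30 counts per cell, a log2 ratio of 4.17 (4.10 to 4.24). CD106 is VCAM-1, an adhesion molecule: members had 0 to 160 counts (median 6) and the others 0 to 49 (median 1), a log2 ratio per cell of 3.60 (3.49 to 3.71). CD43, the leukocyte sialoglycoprotein, had medians of 674 in members and 88 in the others (log2 ratio 2.47, 2.46 to 2.49) and made up 54.1% of all antibody counts in members, against 20.5% in the others. Members also had more antibody counts in all (median 1163 against 532), and scaled to the total antibody count the log2 ratios were 3.10 for CD71, 2.53 for CD106 and 1.40 for CD43. For several other antibodies the direction depended on that scale, and of 92 antibodies 22 had a higher median in members, 61 an equal and 9 a lower one.

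Per cell, Mac-2 (galectin-3), CD357 (GITR), CD102 (ICAM-2), Ly6C, CD61, CD62L (L-selectin), TLR4 and CD120b were next, with log2 ratios of 1.67, 1.55, 1.28, 0.94, 0.87, 0.79, 0.73 and 0.70. Scaled to the antibody total, those of Ly6C, CD61, CD62L, TLR4 and CD120b turned to -0.13, -0.20, -0.28, -0.34 and -0.37. The lowest antibodies per cell were mostly macrophage and monocyte antigens: folate receptor beta (FrB, 1.10 against 13.8 counts per cell), the scavenger receptor CD163 (4 against 40.4), VISTA (1.52 against 7.26), the phosphatidylserine receptor Tim4 (1.35 against 5.52), CD107a (2.53 against 7.77), class II (I-A-I-E, 2.25 against 6.37), CD80 (1 against 2.80), the macrophage growth factor receptor CD115 (2.02 against 5.47) and CD86 (3.06 against 7.24). Medians of FrB (1 and 1) and CD163 (4 and 3) were close in members and other cells, while the highest counts were 7 and 779 for FrB and 10 and 1946 for CD163. Medians were also equal in members and other cells for Tim4 (1), CD107a (2), class II (1), CD80 (1) and CD115 (2). They were lower in members for VISTA (1 against 2) and CD86 (1 against 3). Of 92 antibodies 5 had 0 counts in the day 7 cells, and the panel held no isotype control, so counts of a few per cell cannot be told from nonspecific binding.

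Antibody medians differed between the ranges of members, but the counts of single cells overlapped, unlike the RNA counts that set the ranges. CD71 had medians of 23.5 in the granulocyte range and 3 in the monocyte range, 2 in late granulocytes and 1 in Ly6c2 monocytes. At least 20 CD71 counts were found in 55.6% (41.4 to 69.1%, 30 of 54) of the granulocyte range and 0 of 19 of the monocyte range, against 3 of 70 late granulocytes and 10 of 1127 of all other day 7 cells. CD106 reached 20 counts in 35.2% (22.7 to 49.4%, 19 of 54) of the granulocyte range, 0 of 19 of the monocyte range and 1 of 1127 of the other day 7 cells. CD43 was high in both ranges, with medians of 780.5 and 383 in the granulocyte and monocyte ranges, against 345 in late granulocytes and 112 in Ly6c2 monocytes. The granulocyte range was lower than the monocyte range in CD86 (median 1 against 9), CD54 or ICAM-1 (2 against 12), the fatty acid receptor CD36 (5 against 21) and Ly6C (54 against 119), and higher in CD11b (178 against 72).

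**Figure D5:**
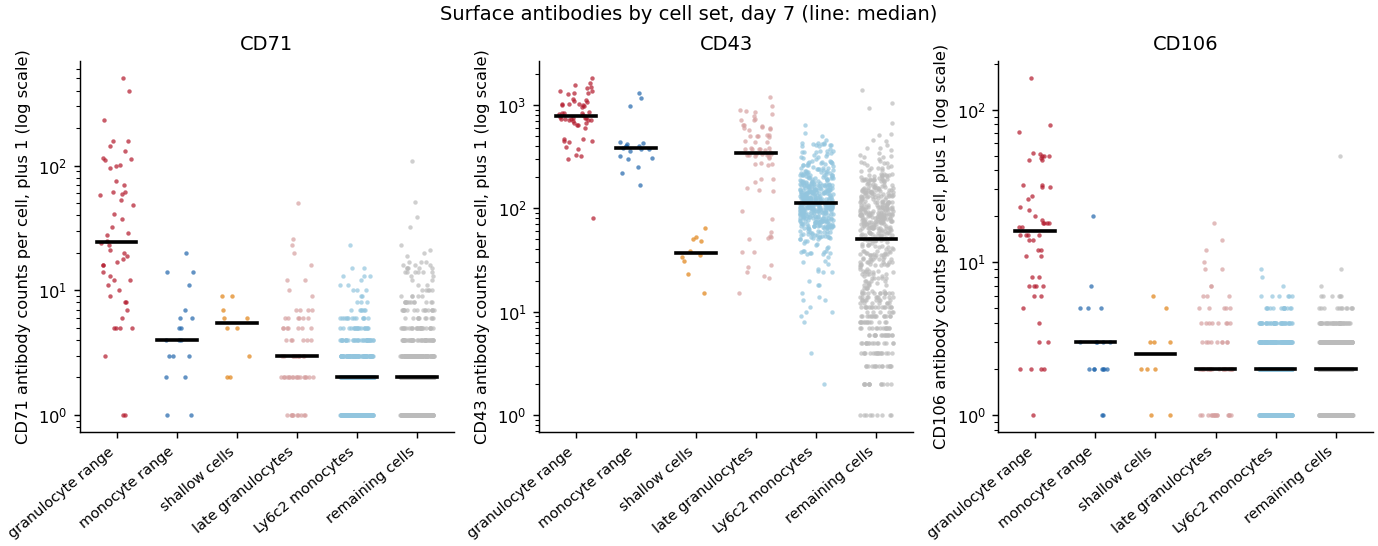
CD71, CD43 and CD106 antibody counts per cell, plus 1 on log axes, in 3 ranges of members (left) and 3 sets of other day 7 cells (right), 1 point per cell with the median as a line. The granulocyte range stands highest for all 3 antibodies (medians 23.5, 780.5 and 15), and the monocyte range shares the high CD43 (median 383) but not CD71 or CD106.

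Within the granulocyte range CD71 was highest in the cells with least S100a8: its medians were 96, 23 and 15.5 counts from low to high S100a8, and 11 of 14, 11 of 18 and 8 of 22 cells had at least 20. Across the 54 cells of the granulocyte range Spearman's rho of CD71 counts was -0.44 with S100a8 and 0.54 with Elane (Pearson's r -0.48 and 0.47), as a description of 1 library. Over all 83 members the order by S100a8 was the other way, with 55.6 against 5.62 counts per cell in the 58 with 100 or more UMIs and the 8 with under 10. In the granulocyte range the complement C5a receptor (CD88) had medians of 4 in the S100a8-high and 1 in the S100a8-low cells (10.7 against 1.29 counts per cell, or 4.62 without the cell with 139 of 236 counts). Also higher was CD11b (259 against 135), and CD62L (2.73 against 9.86, or 5.85 in the S100a8-low cells without 1 cell) and CD31 (2.14 against 5.43) were lower. CD106 medians were 16.5, 14 and 17 from low to high S100a8.

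The genes of these antigens, looked up after the antibody values were seen, went with the antibody in part. Tfrc, the gene of CD71, had 59.7 CPM in members and 24.1 CPM in the other cells, but 74.9, 66.3 and 81.4 CPM from low to high S100a8, without the decline seen in the antibody. Spn, the gene of CD43, had 173 against 107 CPM, and Vcam1, the gene of CD106, 158 against 4.22 CPM. Lgals3, the gene of Mac-2, went the other way, with 674 against 2075 CPM and 70.6 CPM in the granulocyte range (45.8 CPM without 1 cell).

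Of the antigens that the sort excluded, Ly6C was not absent: members had 7 to 529 counts (median 58) and the other cells 0 to 754 (median 26), and 73 of 83 members had at least 20. Ly6G counts were low, with 0 of 83 members at 10 or more against 19 of 70 late granulocytes. CD11b, which the sort required, reached 20 counts in 72 of 83 members, and all the granulocyte range passed, while the 10 shallow members did not. The CD34 antibody had a median of 1 in members and 1 in the other cells, and 0 of 83 members reached 5 counts.

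The allele antibodies gave few counts in the granule-protease cells, most often with more of CD45.1 than of CD45.2. In these chimeras CD45.1 marks cells of the transferred marrow and CD45.2 cells of the host, read by 2 antibodies whose barcodes, as printed here, differ at 11 of 15 positions.
CD45.1: cctatggacttggac
CD45.2: caccgtcattcaacc

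Members had 1 to 56 CD45.1 counts (median 5) and 0 to 33 CD45.2 counts (median 2), and the other day 7 cells 0 to 146 (median 8) and 0 to 200 (median 2). Among cells with at least 5 counts of the pair, CD45.1 exceeded CD45.2 in 87.8% (78.2 to 94.3%, 65 of 74) of members and 79.5% (76.8 to 81.9%, 793 of 998) of the other cells. The share was 87.8% (75.2 to 95.4%, 43 of 49) in the granulocyte range and 94.4% (72.7 to 99.9%, 17 of 18) in the monocyte range, near the 89.8% (79.2 to 96.2%, 53 of 59) of late granulocytes and 93.5% (90.8 to 95.7%, 405 of 433) of Ly6c2 monocytes, and above the 66.2% (61.9 to 70.3%, 335 of 506) of the remaining cells. Staining of members was weak: with at least 20 counts required, 10 members remained, 6 of them with more CD45.1 (60.0%), against 182 of 313 other cells (58.1%). At that limit CD45.1 exceeded CD45.2 in 1 of 4 cells of the granulocyte range and 5 of 6 of the monocyte range, against 3 of 3 late granulocytes, 76 of 93 Ly6c2 monocytes and 103 of 217 remaining cells.

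Of the other day 7 cells, 117 (10.4%) had at least 20 CD45.2 counts. They were 102 of 584 remaining cells (17.5%), 15 of 473 Ly6c2 monocytes (3.17%) and 0 of 70 late granulocytes. At least 20 were also found in 4 members (4.82%). Their CD45.2 counts were 32, 30, 33 and 30 and their CD45.1 counts 4, 8, 3 and 7, about the median of 5 over all members, so a CD45.1 count of this size does not by itself mark a donor cell. 3 of them lay in the granulocyte range, with 2692, 1555 and 3006 UMIs of S100a8 and 2324, 424 and 2069 of Camp, and the other in the monocyte range, with 5 UMIs of S100a8 and 0 of Camp. Another 3 members had more CD45.2 than CD45.1 with under 20 counts, and no member had 20 counts of both. CD45.2 cells of the shielded ankle's own marrow and of the synovium cannot be told apart by these antibodies.

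The 2 steady-state cells that met the rule are given singly. The first had 111 rule UMIs (54 of Elane, 7 of Mpo and 50 of Prtn3) among 32150, with 4145 UMIs of S100a8, 2661 of Camp and 32 of Ltf, 0 of Irf8 and of Csf1r, and 1197 CD43, 27 CD71 and 7 CD106 counts, and it had 11 CD45.1 and 0 CD45.2 counts. The second had 32 rule UMIs (24 of Elane, 0 of Mpo and 8 of Prtn3) among 16537, with 479 UMIs of S100a8, 0 of Camp and 5 of Irf8, and 703 CD43, 2 CD71 and 0 CD106 counts. It stained for CD45.2 (75 counts, against 2 of CD45.1). Both cells held 14 UMIs of Mki67. 2 cells of 1 library give no basis for a comparison between day 7 and steady state within the group.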

How the data were processed

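Cells of 1 day 7 library and 1 steady-state library were read by 10x Chromium 3′ v3.1 with antibody barcodes, per the labels' protocols. The authors deposited filtered matrices of raw counts (UMIs) of genes and of antibodies per cell. Cell Ranger 6.1.2, Seurat 4.4.0 and build mm10 are named, without a role, per the submitters' processing notes. Ambient RNA correction is not given in the sources used here.

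Cells were kept at 500 or more RNA UMIs, 200 or more genes and 10% or less mitochondrial UMIs. Counts were summed per set and scaled to CPM, and genes with 20 CPM in either set were compared, with a floor of 3 counts for a set at 0. Thinning drew 2000 UMIs per cell without replacement. Doublets were called with Scrublet in scanpy 1.11.5 and kept. Python 3.11.15, numpy 2.4.6, scipy 1.17.1, pandas 2.3.3 and matplotlib 3.10.9 were used, and the scripts were tested on simulated data. Replication is 1 library per group, so no p-value was computed.

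Named genes were the 15 highest and 15 lowest by the end of the ratio's interval closer to 1 in members over other day 7 cells, 12 each way in the other comparisons, and members of 30 gene lists. Ribosomal protein, mitochondrial and unnamed genes were left out of the ranking. Antibodies named were the 10 with the largest ratio each way, those of the sort, CD45.1 and CD45.2. The ranking among other ranges of members, the genes Tfrc, Spn, Lgals3 and Cfd, the antibodies followed within the ranges, and the levels without 1 cell were added after the values were seen. The members and the lists were chosen with earlier results of these data known. Promoters are from RefSeq (GRCm38.p6), matched by symbol. A result on 1 gene is not reported here.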

Additional observations from a re-analysis of the deposited data

How the results depend on the processing

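Of 246 values recomputed under other settings, 212 stayed within tolerance (the main value's 95% interval, for a list's median the interval of that median over its genes, and for counts of genes 1.5 times), 33 moved and 1 reversed. The reversed value is the median of granulocyte factors, -0.37 at 100 CPM or more against 1.59. Some medians changed sign inside that wide tolerance: late granulocyte genes (-0.83) reached 0.20 against other cells without those high in S100a8, and ER folding genes (0.02) ranged from -0.19 to 0.27. No paired analysis was possible because each group is 1 library. With 10 or 40 rule UMIs in place of 20, members were 8.51% or 5.12% of day 7 cells, the S-phase median log2 ratio was 2.70 or 2.26, and with 10 the G2/M median was 2.17 and the monocyte marker median -1.57, while with 40 the CD71 median was 19. With the rule scaled to each cell's UMIs the medians were 2.28 (S phase), 1.29 (G2/M) and -3.52 (monocyte markers). With each cell weighted equally the G2/M median was 2.07. Against other cells without those high in S100a8 the medians were 2.71 (S phase), 2.08 (G2/M) and 4.88 (specific granule). Scaled to UMIs outside granule genes they were 2.82 (S phase), 2.01 (G2/M) and 0.27 (ER folding). With the granulocyte range alone, an alternative chosen after seeing the data, the share was 5.25%, the medians 1.5 (G2/M), -6.33 (monocyte markers) and -4.22 (monocyte factors), 98.1% of cells had 100 S100a8 UMIs, and antibody medians were 23.5 (CD71), 780.5 (CD43) and 15 (CD106). At 100 CPM or more, 174 genes were higher and 447 lower. With at least 5 list UMIs per cell, 57.5% of members and 5.03% of other cells met the S-phase list, and 50.7% and 7.85% the G2/M list. With 20 counts of the CD45 pair, CD45.1 was above CD45.2 in 60.0% of members and 58.1% of other cells.

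Depth limits the shallow members, with a median of 1137.5 UMIs, and the few CD45 counts per cell. The spread between animals cannot be had from 1 library per group.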
